A study of Mus musculus with 6 samples.

Results

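Integrin and laminin mRNAs were followed in mouse jawbone cells derived from the periosteum, the membrane that covers bone, after 48 h as spheroids or as a monolayer. Members were all listed genes whose symbol is that of an integrin alpha subunit, an integrin beta subunit or a laminin chain. The rule found 37 of 18002 listed genes, namely 18 integrin alpha subunits, 8 integrin beta subunits and 11 laminin chains. The first group held 3 libraries labelled aggregate_P, from spheroid (3D) culture of these primary cells. The second held 3 libraries labelled monolayer_P, from flat (2D) culture. The labels give no treatment for either, and the sources used here do not give strain, sex or age of the mice. No label says if the libraries within a group are from separate cultures or animals, so p-values measure only the spread between these libraries, which may be technical.

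Integrins are receptors that span the cell membrane, each made of an alpha and a beta subunit. They bind matrix proteins such as collagen, laminin and fibronectin outside the cell and, through adaptor proteins on their tails, the actin cytoskeleton inside it. The alpha subunit largely sets the ligand, and Itgb1 is the shared partner of most alpha subunits in connective tissue. Laminins are secreted trimers of an alpha, a beta and a gamma chain that form the sheet of basement membranes around muscle fibres, vessels, nerves and epithelia. In bone-forming cells, collagen and fibronectin receptors are the best known integrins.

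Library totals ranged from 21701046 to 21889110 estimated reads. The mesenchymal genes Prrx1 and Twist1 were expressed in both groups. Prrx1 was at 157.15, 162.43 and 167.31 FPKM in spheroids and 137.07, 144.92 and 146.26 FPKM in monolayers. Twist1 was lower in spheroids, at 34.45, 31.69 and 34.11 FPKM, against 44.42, 44.62 and 43.24 FPKM in monolayers. FPKM is a level per gene length that also allows for library size, so it can be compared between genes. Of 14 tested mesenchymal markers 8 rose and 5 fell, where 37.1% of all tested genes rose and 37.1% fell. Their summed level was lower, at 7266 to 7451 FPKM in spheroids and 10431 to 10523 FPKM in monolayers. Most of that sum is Col1a1 and Col1a2, with log2 fold changes (spheroid over monolayer) of -1.14 ± 0.03 and -1.01 ± 0.03 (SE). The other genes of the list summed to more in spheroids than in monolayers. Of 8 tested markers of mural cells, which surround vessels, 7 rose and 1 fell, with sums of 248.9 to 250.7 FPKM in spheroids and 167.8 to 177.0 FPKM in monolayers. Markers of several other cell types were more abundant in spheroids and are given beside the members they bear on. In such bulk RNA, fewer cells of a type and less RNA per cell cannot be told apart.

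Spheroids held more mRNA of 20 integrin and laminin subunits and less of 7. Increases of at least 2-fold were seen in the laminin receptor subunits Itga7 and Itga6, the collagen receptor subunit Itga10, the beta subunits Itgb2, Itgb3, Itgb6 and Itgb8, and the leukocyte subunits Itgal, Itgam and Itgax. Decreases of at least 2-fold were confined, among the tested members, to the collagen receptor subunits Itga1 and Itga11 and the laminin chain Lama1. Of the 37 members 33 passed the filter on low counts, 3 of them only through the spheroid libraries (Itgal, Itgax and Itgb6). In edgeR's quasi-likelihood test spheroids had higher levels of 20 of these 33 and lower levels of 7, with p-values adjusted by the Benjamini-Hochberg method to a threshold of 0.05, and 6 did not pass. The background was large, since 37.1% of all 13708 tested genes were called higher and 37.1% lower, 74.2% in either direction. Changes of at least 2-fold were called higher for 10 members, against 12.7% of all tested genes, and lower for 3 members, against 6.67% of all. Both directions together gave 13 of 33 members, or 39.4%, against 19.4% of all tested genes. The 3 members that passed the filter only through the spheroid libraries are all among those called at least 2-fold higher. For them the filter itself favours a rise, so these counts and shares are descriptive only. With limma on log2(FPKM + 1), which understates the change of low genes, 8 rather than 13 members passed 2-fold. The groups did not overlap for 29 members by CPM, the count scaled to library size, against 75.8% of all tested genes. The median log2 fold change of the tested members was 0.48, against -0.00 over all tested genes.

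**Figure D1:**
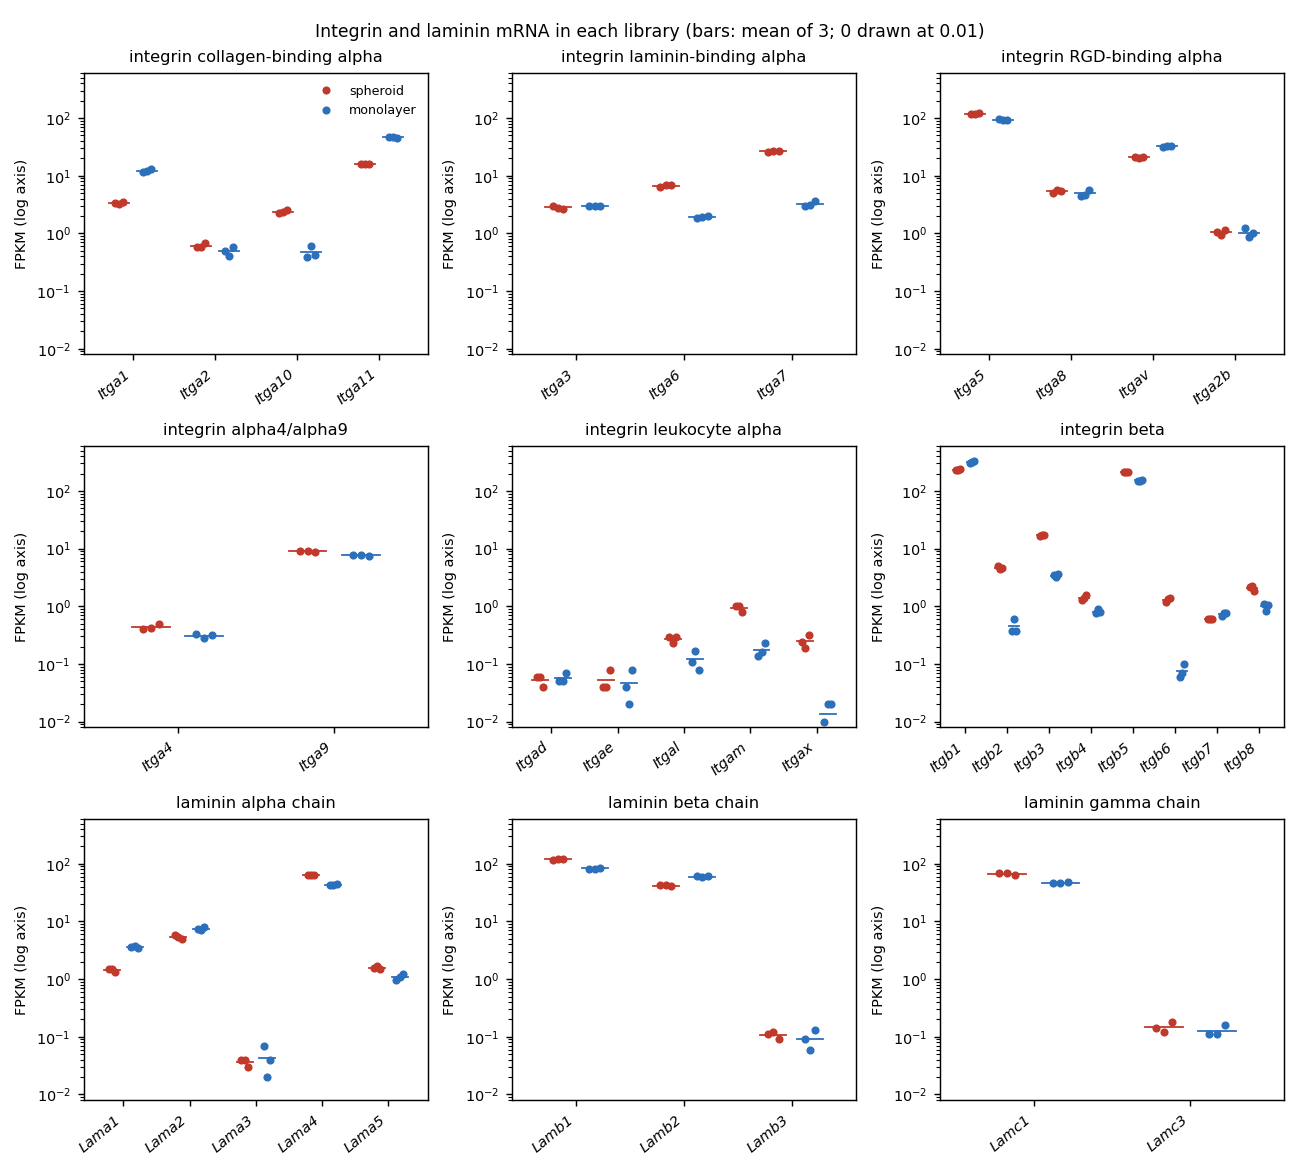
FPKM (log axis) of 36 subunits in each of the 3 spheroid libraries (red) and 3 monolayer libraries (blue), by role, with a bar at the mean. Itga7, Itgb2, Itgb3 and Itgb6 stand well apart between the groups, while abundant genes such as Itgb1, Itgb5 and Itga5 differ by less than 2-fold; the 1 value listed at 0 (Itgax) is drawn at 0.01.

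By level, the 9 members with a mean of at least 20 FPKM over all 6 libraries had log2 fold changes between -1.56 and 0.51, and only Itga11 among them passed 2-fold. The 15 members between 1 and 20 FPKM ranged from -1.89 to 3.35, and 8 of them passed 2-fold. The 9 tested members under 1 FPKM ranged from -0.33 to 4.09, and these rest on few reads.

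Of the 4 collagen-binding alpha subunits 2 fell and 1 rose. Itga11, a receptor for fibrillar collagen on mesenchymal cells, stood at 16.19, 16.07 and 16.11 FPKM in spheroids, against 47.53, 46.32 and 45.05 FPKM in monolayers. Every spheroid library was below every monolayer library. The log2 fold change was -1.56 ± 0.03 (SE, edgeR adjusted p = 2.48e-28). Itga1, a receptor that prefers basement membrane collagen, had 3.35, 3.28 and 3.51 FPKM in spheroids and 11.62, 11.97 and 13.11 FPKM in monolayers. It fell by 1.89 ± 0.05 on the log2 scale (adjusted p = 1.90e-25). Itga10, a collagen receptor subunit best known from cartilage, went the other way. Its level was 2.27, 2.36 and 2.51 FPKM in spheroids, against 0.39, 0.61 and 0.43 FPKM in monolayers, a log2 fold change of 2.28 ± 0.12 (adjusted p = 4.12e-17). Of the exonic bases of Itga10, 34.5% also belong to the annotated gene Gm42957 on the same strand, so its count is uncertain. Itga2, a further collagen receptor subunit, averaged 0.617 ± 0.0551 FPKM in spheroids and 0.493 ± 0.0850 FPKM in monolayers (SD, n = 3), and the groups overlapped (adjusted p = 0.0612, or 0.0173 without monolayer replicate 3). Itga2 and Itga1 lie next to each other on chromosome 13, with 25.978 kb between them. The summed FPKM of the class was 22.5 ± 0.274 in spheroids and 59.5 ± 0.461 in monolayers. The ratio of Itga1 to Itga10 in FPKM was 1.42 ± 0.0473 in spheroids and 26.6 ± 6.08 in monolayers. For this ratio and each share or ratio of subunits in the following paragraphs on integrins and laminins, the two-sided exact permutation test over the 6 libraries gave p = 0.1, the smallest value that 3 against 3 can give.

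The promoters of these 3 collagen receptor genes are shown because the genes moved apart. Each line holds the 250 bases before a RefSeq transcription start, 5′ to 3′ on the strand of the gene (GRCm38.p6). Itga10 is at chr3:96645334-96645583 on the plus strand, Itga1 at chr13:115101965-115102214 on the minus strand and Itga11 at chr9:62677605-62677854 on the plus strand. Capitals mark matches to 4 motifs, searched on both strands: the CArG box of SRF, GGAATG of the TEAD factors, TGANTCA of AP-1 and, for NF-kB, GGGA and CC with any 4 bases between them.
Itga10: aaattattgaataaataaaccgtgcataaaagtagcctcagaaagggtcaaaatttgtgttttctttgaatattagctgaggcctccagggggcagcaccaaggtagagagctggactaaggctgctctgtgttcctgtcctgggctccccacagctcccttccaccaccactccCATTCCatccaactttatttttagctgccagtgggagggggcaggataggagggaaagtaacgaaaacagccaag
Itga1: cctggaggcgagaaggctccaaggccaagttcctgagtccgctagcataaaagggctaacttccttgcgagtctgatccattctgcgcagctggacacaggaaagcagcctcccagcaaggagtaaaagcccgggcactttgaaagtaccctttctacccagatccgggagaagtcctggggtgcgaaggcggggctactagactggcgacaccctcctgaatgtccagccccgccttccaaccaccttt
Itga11: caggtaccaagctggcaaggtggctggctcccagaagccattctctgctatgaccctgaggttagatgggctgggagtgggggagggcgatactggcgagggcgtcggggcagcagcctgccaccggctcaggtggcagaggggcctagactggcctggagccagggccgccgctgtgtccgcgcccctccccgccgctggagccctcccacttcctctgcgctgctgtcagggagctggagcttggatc
Itga10 has GGAATG, on the opposite strand, with its first base 75 bases before the start. The windows of Itga1 and Itga11 hold none of the 4 motifs, which says only that these letters are not in these 250 bases. GGAATG occurs in 12.6% of all 32851 promoter windows of the same length, TGANTCA in 6.75%, the NF-kB motif in 17.6% and the CArG box in 1.47%. RefSeq windows were at hand for 23 members, in 26 windows, of which 15 held no match. Of these 26 windows 11.5% held GGAATG, 3.85% TGANTCA, 23.1% the NF-kB motif and 7.69% the CArG box. Whether these shares differ from those of all windows was not tested.

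Laminin-binding alpha subunits were more abundant in spheroids as a sum, at 36.0 ± 0.337 FPKM against 8.16 ± 0.453 FPKM in monolayers. Itga7 (gene ID 16404, chromosome 10, 128933421 to 128958286, GRCm38.p6) encodes the laminin receptor of muscle fibres. It was present at 26.25, 26.64 and 26.64 FPKM in spheroids, against 2.98, 3.12 and 3.65 FPKM in monolayers. The log2 fold change was 3.00 ± 0.05 (edgeR adjusted p = 1.29e-30), an increase of 7.97-fold. Itga6, the alpha subunit of laminin receptors in many epithelia, vessels and nerve sheaths, had 6.4, 6.80 and 6.81 FPKM in spheroids and 1.84, 1.96 and 1.98 FPKM in monolayers. It rose by 1.74 ± 0.06 on the log2 scale (adjusted p = 2.07e-22). Itga3, the other member of the class, had 2.96, 2.79 and 2.70 FPKM in spheroids and 2.96, 2.95 and 3.03 FPKM in monolayers, and did not pass the test (log2 fold change -0.12 ± 0.07, adjusted p = 0.120). The ratio of Itga7 to Itga3 in FPKM was 9.43 ± 0.510 in spheroids and 1.09 ± 0.103 in monolayers. Itga7 made up 73.7%, 73.5% and 73.7% of the class in spheroids, against 38.3%, 38.9% and 42.1% in monolayers.

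Markers of tissues known for these receptors were also higher in spheroids. All 17 tested markers of skeletal muscle rose, with a median log2 fold change of 4.18. Their summed level was 1448 to 1507 FPKM in spheroids and 81.4 to 84.7 FPKM in monolayers, and none was at 0 reads in all libraries. Des, which encodes the muscle intermediate filament desmin, rose by 4.47 ± 0.04 on the log2 scale. Likewise, 15 of 15 endothelial markers were higher and summed to 250.2 to 257.1 FPKM in spheroids and 40.4 to 41.8 FPKM in monolayers. Schwann cell markers rose in all 9 tested cases, with sums of 57.8 to 60.0 FPKM in spheroids and 12.8 to 14.5 FPKM in monolayers. Some tested markers of each of these lists passed the filter only through the spheroid libraries, and for them the filter favours a rise. The part of these cells in the values of Itga7 and Itga6 was not tested.

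Subunits of the RGD-binding class, whose ligands carry an arginine-glycine-aspartate sequence, had the highest summed level of the alpha classes in both groups, at 147.3 ± 2.73 FPKM in spheroids and 132.4 ± 1.18 FPKM in monolayers, most of it Itga5. Itga5, the fibronectin receptor subunit, had 119.09, 118.37 and 122.93 FPKM in spheroids, against 96.36, 94.37 and 91.38 FPKM in monolayers. All spheroid libraries were above all monolayer libraries, by a log2 fold change of 0.32 ± 0.03 (adjusted p = 1.35e-11). Itgav, which binds vitronectin, osteopontin and latent TGF-beta with several beta partners, fell to 21.03, 20.48 and 20.95 FPKM in spheroids, against 31.32, 32.65 and 33.20 FPKM in monolayers. Its log2 fold change was -0.67 ± 0.03 (adjusted p = 3.17e-19). The ratio of Itga5 to Itgav in FPKM was 5.77 ± 0.103 in spheroids and 2.91 ± 0.163 in monolayers. Itga8, a receptor subunit for nephronectin, averaged 5.33 ± 0.362 FPKM in spheroids and 4.93 ± 0.541 FPKM in monolayers, with overlapping groups (adjusted p = 0.309, or 0.0147 without monolayer replicate 3). Itga2b, the platelet subunit, averaged 1.04 ± 0.0961 FPKM in spheroids and 1.03 ± 0.192 FPKM in monolayers (adjusted p = 0.881). Outside this class, Itga9, a tenascin-C and osteopontin receptor subunit, had 9.13, 9.22 and 8.62 FPKM in spheroids and 7.78, 7.62 and 7.51 FPKM in monolayers. It rose by 0.20 ± 0.04 on the log2 scale (adjusted p = 4.59e-05). Its relative Itga4, which binds VCAM1 and fibronectin, rose by 0.48 ± 0.14 at a mean below 0.5 FPKM in both groups.

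Beta subunits shifted in make-up while their sum hardly differed, at 475.5 ± 8.50 FPKM in spheroids and 477.5 ± 12.5 FPKM in monolayers. Itgb1, the common partner, had 229.31, 232.35 and 241.81 FPKM in spheroids, against 309.24, 319.34 and 328.19 FPKM in monolayers. It was lower in every spheroid library, by a log2 fold change of -0.48 ± 0.03 (adjusted p = 3.46e-16). Itgb5, a vitronectin receptor subunit that pairs with Itgav, had 211.68, 214.67 and 215.25 FPKM in spheroids and 149.58, 151.23 and 155.47 FPKM in monolayers. Its log2 fold change was 0.46 ± 0.03 (adjusted p = 3.52e-16). Itgb1 accounted for 49.0%, 49.0% and 49.9% of beta FPKM in spheroids, against 66.5%, 67.0% and 66.9% in monolayers. The share of Itgb5 was 45.3%, 45.3% and 44.4% in spheroids, against 32.1%, 31.7% and 31.7% in monolayers.

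The other partners of Itgav rose more steeply from lower levels. Itgb3, the beta subunit of the osteoclast and platelet vitronectin receptors (gene ID 16416, chromosome 11, 104608000 to 104670476), had 16.63, 17.10 and 17.52 FPKM in spheroids. Its level in monolayers was 3.49, 3.17 and 3.56 FPKM, giving a log2 fold change of 2.29 ± 0.05 (adjusted p = 1.08e-28). Itgb8, which binds latent TGF-beta, had 2.12, 2.26 and 1.84 FPKM in spheroids and 1.10, 0.84 and 1.07 FPKM in monolayers, a log2 fold change of 1.02 ± 0.13 (adjusted p = 3.93e-08). Itgb6, a TGF-beta-activating subunit known mainly from epithelia, had the highest fold of all beta subunits, at 17-fold. Its level was low, at 1.18, 1.36 and 1.38 FPKM in spheroids and 0.06, 0.07 and 0.10 FPKM in monolayers. The log2 fold change was 4.09 ± 0.21 (adjusted p = 8.77e-18). It rests on 404 reads in spheroids and 23 in monolayers. Itgb6 passed the filter only through the spheroid libraries, which favours a rise, so its fold and p-value are descriptive only. The summed FPKM of Itgb3, Itgb5, Itgb6 and Itgb8 over that of Itgav was 11.3 ± 0.240 in spheroids and 4.84 ± 0.0842 in monolayers.

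Of the osteoclast markers all 7 tested rose, with sums of 565.1 to 576.8 FPKM in spheroids and 127.9 to 131.5 FPKM in monolayers. Most of that sum is Ctsk, a collagen-degrading protease gene that is also on the mesenchymal list. Without Ctsk the sum was 105.3 to 107.1 FPKM in spheroids and 14.0 to 15.8 FPKM in monolayers. The median log2 fold change of all 7 was 5.85, or 4.34 with Dcstamp at its lower bound. Dcstamp, an osteoclast fusion gene, had 61 reads in spheroids and 0 in monolayers, a rise of at least 20.2-fold if the monolayer group is set to 3 reads in all. Dcstamp, Ocstamp and Atp6v0d2 passed the filter only through the spheroid libraries, with 0, 1 and 12 reads in monolayers. For them the filter itself favours a rise, and the median of 5.85 is the value of Ocstamp. The count and median of this list are therefore descriptive only. The untested markers Oscar and Calcr had 20 and 1 reads in spheroids and 18 and 1 in monolayers. The part of osteoclasts and endothelium in the value of Itgb3 was not tested. Most epithelial markers were at or near 0 in both groups. Of 13 listed, 3 had 0 reads in all libraries (Krt14, Krt8 and Cldn4), and the epithelial adhesion gene Epcam had 1 read in spheroids and 1 in monolayers. The list summed to 1.51 to 1.80 FPKM in spheroids and 0.87 to 1.35 FPKM in monolayers. Of its 2 tested genes Trp63 rose by 2.85 ± 0.24, and Krt19 had a log2 fold change of -2.47 ± 0.45.

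Itgb4, the partner of Itga6 in hemidesmosomes and Schwann cells, rose by 0.76 ± 0.11 on the log2 scale (adjusted p = 3.07e-07). It averaged 1.41 ± 0.168 FPKM in spheroids and 0.810 ± 0.0624 FPKM in monolayers. Since Itga6 changed more, the ratio of Itgb4 to Itga6 was lower in spheroids, at 0.211 ± 0.0199 against 0.420 ± 0.0258 in monolayers. Itgb7, a lymphocyte subunit, averaged 0.603 ± 0.00577 FPKM in spheroids and 0.740 ± 0.0520 FPKM in monolayers, and did not pass (adjusted p = 0.129). Of the exonic bases of Itgb4, 8.41% lie under an opposite-strand gene, and no source used here says whether counting used strand.

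The promoters of Itgb6 and Itgb1 are shown as the subunit with the largest fold and the most abundant one. The Itgb6 window, at chr2:60673694-60673943 on the minus strand, precedes a start inside the gene and in part overlaps exons of other annotated Itgb6 transcripts. The Itgb1 window is at chr8:128685404-128685653 on the plus strand. Capitals again mark motif matches.
Itgb6: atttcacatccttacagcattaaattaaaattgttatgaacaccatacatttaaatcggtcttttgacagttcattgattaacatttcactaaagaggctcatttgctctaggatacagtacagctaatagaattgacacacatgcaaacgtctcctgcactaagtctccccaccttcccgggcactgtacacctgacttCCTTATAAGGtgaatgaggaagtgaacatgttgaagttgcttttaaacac
Itgb1: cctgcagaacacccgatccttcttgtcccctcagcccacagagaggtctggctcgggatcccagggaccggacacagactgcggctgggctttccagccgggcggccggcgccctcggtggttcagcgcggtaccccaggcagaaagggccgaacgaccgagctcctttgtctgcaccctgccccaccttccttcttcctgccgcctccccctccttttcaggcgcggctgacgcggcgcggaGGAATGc
Itgb6 has a CArG box with its first base 50 bases before this start, and none of the 4 motifs in its other window. Itgb1 has GGAATG with its outermost base 7 bases before the start. Itgb6 was higher and Itgb1 lower in spheroids, and Itga10, which also has GGAATG, was higher. Lamb3, the other member with GGAATG, did not pass the filter on low counts.

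Itgb2 and its alpha partners Itgam, Itgax and Itgal were low and rose in spheroids, unlike the lymphocyte subunit Itgb7 given above. Itgb2, the beta subunit shared by leukocyte integrins (gene ID 16414, chromosome 10, 77530329 to 77565708), had 5.02, 4.38 and 4.63 FPKM in spheroids, against 0.37, 0.61 and 0.37 FPKM in monolayers. The log2 fold change was 3.35 ± 0.14 (adjusted p = 5.26e-20), on 854 reads in spheroids and 82 in monolayers. Its partner Itgam, of macrophages and neutrophils, had 1.03, 1.03 and 0.79 FPKM in spheroids and 0.14, 0.16 and 0.23 FPKM in monolayers. It rose by 2.41 ± 0.20 (adjusted p = 2.27e-12), although 70.0% of its exonic bases are shared with the annotated gene Gm49368, which makes its count uncertain. Itgax, of dendritic cells and macrophages, had 0.24, 0.19 and 0.32 FPKM in spheroids and 0.00, 0.02 and 0.02 FPKM in monolayers. Its log2 fold change of 3.88 ± 0.52 (adjusted p = 6.73e-08) rests on 65 reads in spheroids and 4 in monolayers. Itgal, the partner of Itgb2 in lymphocytes, had 0.29, 0.23 and 0.29 FPKM in spheroids and 0.11, 0.17 and 0.08 FPKM in monolayers. It rose by 1.17 ± 0.28 on the log2 scale (adjusted p = 4.52e-04). Itgax and Itgal passed the filter only through the spheroid libraries, which favours a rise, so their p-values are descriptive only.

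The leukocyte alpha subunits Itgad and Itgae did not pass the filter, with 14 and 15 reads in spheroids and 14 and 13 in monolayers. Itgam, Itgax and Itgad lie side by side on chromosome 7, with 11.034 kb and 23.275 kb between them. Per length, the alpha partners of Itgb2 summed to 0.326 ± 0.0171 of its FPKM in spheroids and 0.849 ± 0.215 in monolayers. Among macrophage and leukocyte markers 11 of 13 tested rose and 0 fell, and their median log2 fold change was 1.94. The list summed to 143.6 to 149.9 FPKM in spheroids and 28.6 to 32.3 FPKM in monolayers. Most of that sum is Lyz2, at 97.81 to 105.04 FPKM in spheroids and 16.99 to 19.43 FPKM in monolayers. Cd68, a macrophage lysosome gene, rose by 3.16 ± 0.11, and Ptprc, which marks all leukocytes, by 1.07 ± 0.19. Csf1r and Coro1a did not pass, at 0.24 ± 0.11 and 0.14 ± 0.19 (edgeR adjusted p = 0.0520 and 0.516). Some of the tested markers passed the filter only through the spheroid libraries, which favours a rise. The part of such cells in the leukocyte integrin values was not tested.

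**Figure D2:**
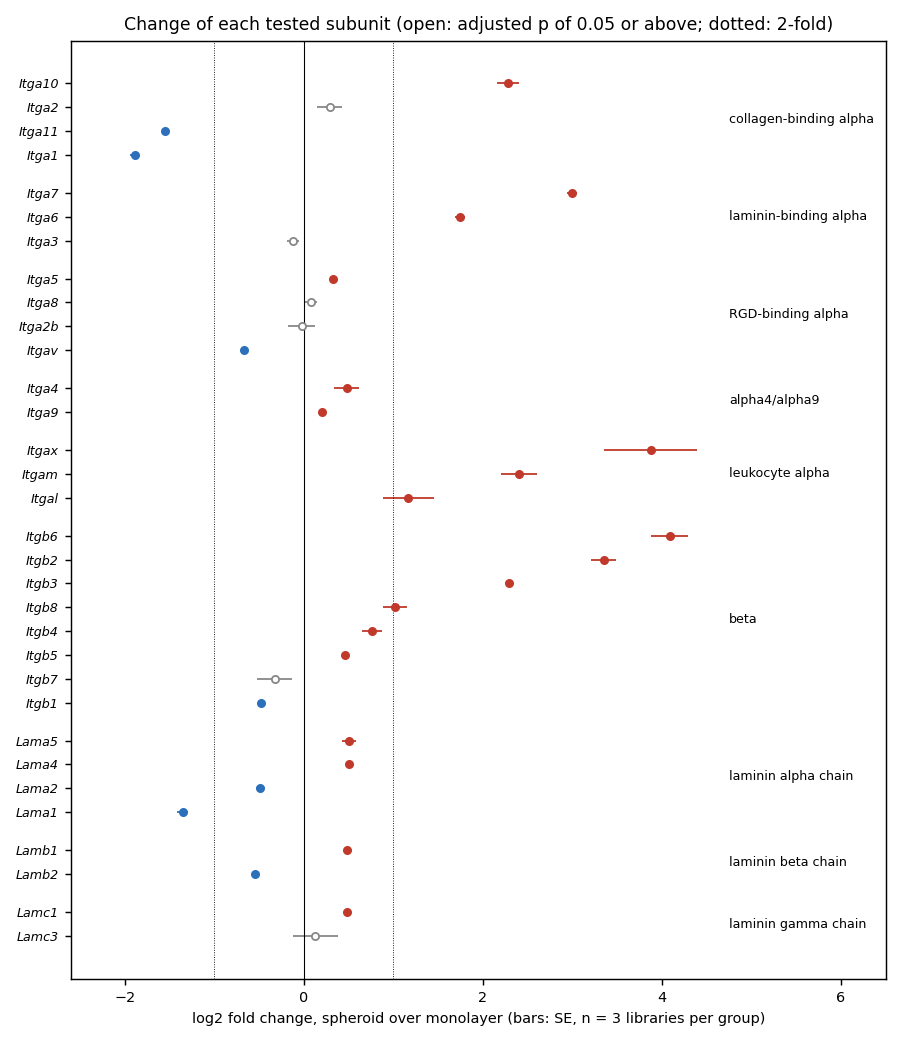
Log2 fold change of spheroid over monolayer for 32 tested subunits, grouped by role, with SE bars (n = 3 libraries per group); filled points passed the edgeR threshold and dotted lines mark 2-fold. Within the collagen-binding, RGD-binding and beta classes and the laminin alpha and beta chains, members lie on both sides of 0, while the laminin-binding and leukocyte classes hold no called decrease.

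**Figure D3:**
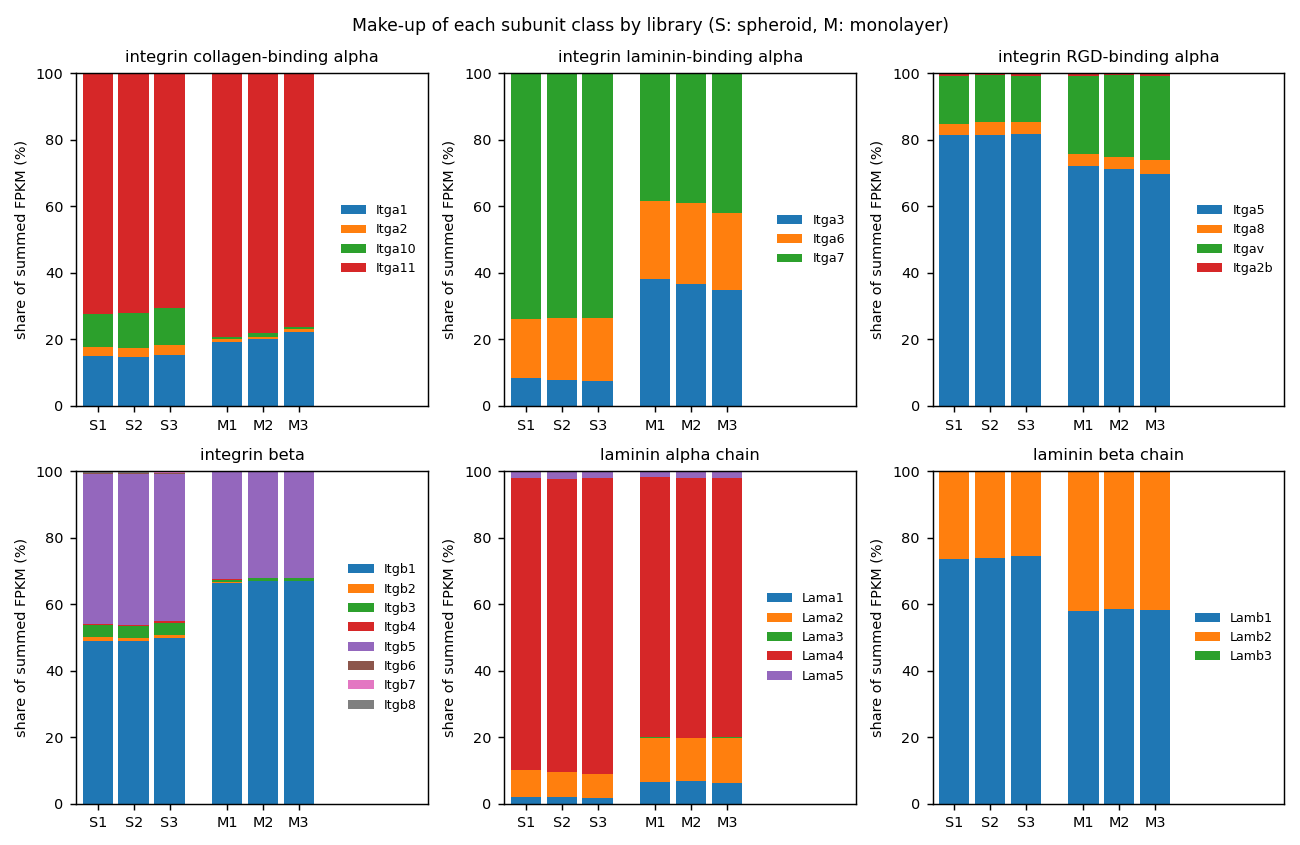
Share of each subunit in the summed FPKM of its class, in percent, for spheroid libraries (S1 to S3) and monolayer libraries (M1 to M3). The share of Itga7 is 73.5% to 73.7% in spheroids and 38.3% to 42.1% in monolayers, and the shares of Itgb5 and Lamb1 are higher in spheroids.

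Laminin chains summed to 302.4 ± 1.35 FPKM in spheroids and 247.6 ± 5.69 FPKM in monolayers. The most abundant chain of each kind rose together. Lama4, the alpha chain of laminins around vessels and in connective tissue, had 63.02, 63.45 and 63.78 FPKM in spheroids and 42.92, 43.19 and 44.83 FPKM in monolayers. Lamb1, a widely used beta chain, had 118.19, 119.73 and 122.23 FPKM in spheroids and 82.90, 82.80 and 85.70 FPKM in monolayers. Lamc1, the gamma chain of most laminins, had 68.21, 68.63 and 64.51 FPKM in spheroids and 46.06, 46.78 and 48.50 FPKM in monolayers. The log2 fold changes of Lama4, Lamb1 and Lamc1 were 0.51 ± 0.03, 0.49 ± 0.03 and 0.48 ± 0.03, with edgeR adjusted p-values of 9.45e-17, 1.05e-16 and 1.64e-15. In none of the 3 did a spheroid library overlap a monolayer library.

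Other chains fell. Lama1, a chain of early embryonic basement membrane, had 1.51, 1.5 and 1.33 FPKM in spheroids, against 3.57, 3.77 and 3.51 FPKM in monolayers. Its log2 fold change was -1.36 ± 0.06 (adjusted p = 4.74e-19). Lama2, the muscle and nerve laminin chain, averaged 5.43 ± 0.405 FPKM in spheroids and 7.45 ± 0.423 FPKM in monolayers, a log2 fold change of -0.49 ± 0.05 (adjusted p = 1.32e-09). It was lower in spheroids while skeletal muscle and Schwann cell markers were higher. Lamb2, a beta chain of muscle and kidney laminins, averaged 42.1 ± 0.450 FPKM in spheroids and 60.1 ± 1.68 FPKM in monolayers, a log2 fold change of -0.55 ± 0.03 (adjusted p = 2.43e-17). The ratio of Lamb1 to Lamb2 in FPKM was 2.85 ± 0.0789 in spheroids and 1.39 ± 0.0243 in monolayers. That of Lama4 to Lama2 was 11.7 ± 0.950 in spheroids and 5.87 ± 0.218 in monolayers.

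Alpha chains and gamma chains stood at similar summed levels, with a ratio of 1.06 ± 0.0321 in spheroids and 1.17 ± 0.00458 in monolayers. Beta chains exceeded gamma chains, at a ratio of 2.38 ± 0.102 in spheroids and 3.01 ± 0.0456 in monolayers. Lama5, a chain of mature epithelial and vascular basement membranes, rose by 0.51 ± 0.08 (adjusted p = 7.83e-07) to 1.58 ± 0.107 FPKM in spheroids, against 1.08 ± 0.125 FPKM in monolayers. Lama3 and Lamb3, chains found mainly in epithelial laminin, did not pass the filter, with 18 and 27 reads in spheroids and 15 and 24 reads in monolayers. Lamc3 averaged 0.147 ± 0.0306 FPKM in spheroids and 0.127 ± 0.0289 FPKM in monolayers (adjusted p = 0.657).

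The Lama2 promoter is shown because, with Itgb6, it is the only member window with a CArG box. It is at chr10:27616943-27617192 on the minus strand, and capitals mark the match. The annotated gene reaches to base 27617191, so this window precedes a start inside the gene and lies almost wholly within it.
Lama2: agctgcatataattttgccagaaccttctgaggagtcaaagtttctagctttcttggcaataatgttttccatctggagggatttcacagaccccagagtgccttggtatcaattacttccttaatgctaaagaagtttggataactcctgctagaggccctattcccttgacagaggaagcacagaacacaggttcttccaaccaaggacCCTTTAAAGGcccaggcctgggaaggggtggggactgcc
The CArG box of Lama2 has its first base 39 bases before this start. Of the 2 members with this motif, Itgb6 was higher and Lama2 lower in spheroids.

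Partners of laminin in the basement membrane and the other laminin receptors were read from the same fit. Among 19 tested basement membrane genes 12 rose and 5 fell (median log2 fold change 0.83), against 37.1% of all tested genes in each direction. The summed level of the list was nonetheless lower, at 4844 to 4911 FPKM in spheroids and 5612 to 5636 FPKM in monolayers. Sparc, a matricellular gene that makes up most of the sum, had a log2 fold change of -0.70 ± 0.03, and without it the sum was 1818 to 1847 FPKM in spheroids and 799.0 to 828.4 FPKM in monolayers. Col15a1, a basement membrane zone collagen gene, rose by 2.61 ± 0.04 and Frem2, a matrix gene of the embryonic epidermis, by 2.54 ± 0.14. Col4a5 and Tinagl1 had log2 fold changes of -1.64 ± 0.05 and -1.43 ± 0.06. The main type IV collagen genes Col4a1 and Col4a2 rose by 1.49 ± 0.03 and 1.38 ± 0.03, and thus by more than Lama4, Lamb1 or Lamc1. Endothelial markers rose in the same libraries, as given above, and their part in these values was not tested. Of 26 tested non-integrin laminin receptors and dystrophin complex genes 15 rose and 7 fell, with a median of 0.28, against 37.1% of all tested genes in each direction. Their sums were 1652 to 1664 FPKM in spheroids and 1858 to 1930 FPKM in monolayers. The largest part was Rpsa, which encodes a ribosomal protein also described as a laminin receptor. It stood at 763.9 to 779.1 FPKM in spheroids and 1280 to 1352 FPKM in monolayers, and the rest of the list summed to more in spheroids. Dag1, which encodes dystroglycan, had 74.71, 80.23 and 79.75 FPKM in spheroids, against 47.81, 49.27 and 48.76 FPKM in monolayers, and rose by 0.65 ± 0.03. The sarcoglycan gene Sgca, expressed mainly in muscle, rose by 3.97 ± 0.18. Rpsa and Utrn, the utrophin gene, had log2 fold changes of -0.81 ± 0.03 and -0.43 ± 0.05.

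On the inner side of the membrane the direction was mostly the other way. Of 39 tested genes of the integrin adhesome core, the proteins that bind integrin tails or join them to actin, 10 rose and 24 fell (median log2 fold change -0.27). The background was 37.1% of all tested genes in each direction. Zyx, the zyxin gene, had 132.03, 125.93 and 127.63 FPKM in spheroids, against 424.70, 414.06 and 416.08 FPKM in monolayers, a log2 fold change of -1.75 ± 0.03. Vcl, the vinculin gene, followed at -1.68 ± 0.03. Parvb, which encodes beta-parvin, and Tns4, which encodes a tensin, rose by 1.67 ± 0.04 and 1.44 ± 0.17. The summed level of the list was 1493 to 1507 FPKM in spheroids and 2553 to 2608 FPKM in monolayers. By comparison, all integrin alpha subunits summed to 216.8 ± 2.78 FPKM in spheroids and 208.4 ± 1.23 FPKM in monolayers.

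Integrin ligands other than laminins went both ways, with 14 of 24 tested higher and 8 lower and a median of 0.37. Of all tested genes 37.1% were called higher and 37.1% lower. Their sum was 29071 to 29990 FPKM in spheroids and 16553 to 16704 FPKM in monolayers, and without Spp1 12548 to 12764 FPKM in spheroids and 15914 to 16081 FPKM in monolayers. Spp1, which encodes the Itgav and Itga9 ligand osteopontin, and Icam2, a ligand of leukocyte integrins, rose by 4.73 ± 0.03 and 3.00 ± 0.15. The matricellular genes Ccn2 and Thbs1 had log2 fold changes of -3.09 ± 0.03 and -2.76 ± 0.03. Fn1, which encodes the Itga5 ligand fibronectin, stood at 0.03 ± 0.03 (adjusted p = 0.406) while Itga5 itself rose by 0.32 ± 0.03.

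**Figure D4:**
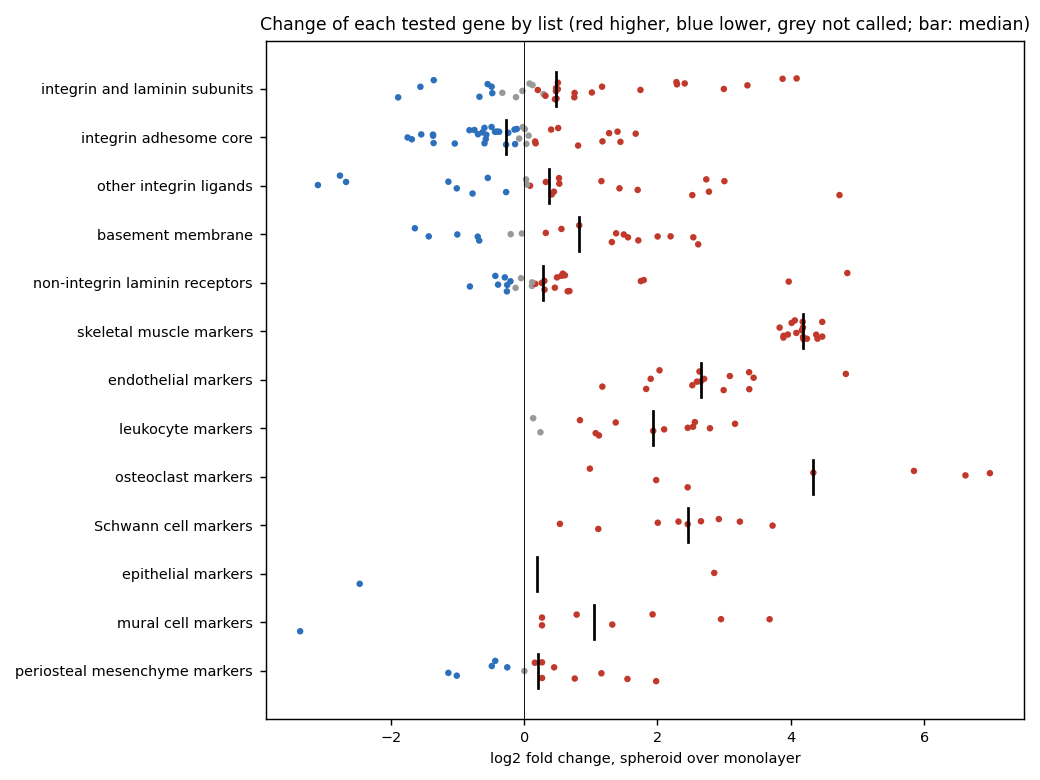
Log2 fold change of spheroid over monolayer for each tested gene of the subunits, of 4 pathway lists and of 8 marker lists, with a bar at the median; Dcstamp, with 0 monolayer reads, is drawn at its lower bound. The adhesome core has its median below 0, at -0.27, and the subunits theirs at 0.48.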

How the data were processed

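Total RNA of jawbone periosteal cells was taken after 48 h and sequenced on DNBSEQ machines, per the labels' protocols. The submitters' processing notes name HISAT and the build GRCm38.p6; the sources used here give no counting tool, annotation or use of strand. Per the file headers, the authors deposited a read count, here an expected count since many values have decimals, and an FPKM value for each gene.

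Counts were rounded, and rows were kept with filterByExpr at a minimum count of 10, which left 13708 genes. The whole table was fitted with edgeR 4.0.16 (R 4.3.3): TMM factors of 0.985 to 1.02, robust quasi-likelihood tests, and p-values adjusted over the whole table (Benjamini-Hochberg, threshold 0.05). SEs come from the F statistic. FPKM was used for levels, shares and ratios, with SD over 3 libraries. Replicate pairs had mean chi-square ratios of 1.90 to 2.91 over genes with at least 40 reads, so none were copies within counting noise.

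Gene coordinates and promoter sequences are RefSeq GRCm38.p6; all 37 members matched by gene ID. Exon overlaps came from GENCODE M21. The scripts were tested on simulated data. Some items, among them 1 member, are not reported here by name; they stay in the counts, sums and medians.

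The members, gene lists and tests were chosen with earlier results of these data known. Values in every library are given for members changed at least 2-fold and for the most abundant member of each role class; each list is illustrated by at most its 2 steepest rises and 2 steepest falls, with Dag1 and Rpsa. Prrx1, Twist1, Col4a1, Col4a2, Fn1, Ptprc, Epcam, Sparc, Ctsk, Lyz2, Csf1r, Coro1a, Ocstamp, Atp6v0d2, Oscar and Calcr were named after values were seen. Sums without the dominating gene and library values of Itga3, Itgav, Itgb5, Dag1 and Zyx were also added after values were seen. The same holds for the levels of Rpsa and Lyz2 and for the choice of promoter windows and motifs. Alternatives were other scalings, filters and tests (DESeq2 1.42.0, limma 3.58.1), limma on log2(FPKM + 1) and log2(FPKM + 0.1), a replicate block and leaving out each library.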

Additional observations from a re-analysis of the deposited data

How the results depend on the processing

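All 27 called subunits kept their direction and their side of the threshold under each of the 16 alternatives that tested them. The count of higher subunits was 20 and of lower subunits 7 in the main result, and leaving out each library gave 20 to 22 and 7 to 7. Changes of at least 2-fold, 13 in the main result, numbered 12 to 13 without each library and 8 with limma on log2(FPKM + 1), a scale that understates the change of low genes. With the replicate block the counts were 20, 7 and 13, and no call changed. The labels do not say if same-numbered libraries are paired. The deviations of same-numbered libraries correlated at -0.00495, 0.102 and 0.00638, and not every library correlated best with its own number. With 3 libraries per group this cannot settle whether they are paired. Among the 6 subunits not called, Itga2 passed with library size alone (0.32, adjusted p = 0.0379), at a minimum count of 30 (0.30, 0.0499) and without monolayer replicate 3 (0.42, 0.0173), in edgeR's test. Itga8 also passed without monolayer replicate 3 (0.17, edgeR adjusted p = 0.0147). The near-zero log2 fold change of Itga2b turned positive with library size alone (0.00835), with limma on log2(FPKM + 1) (0.0103) or log2(FPKM + 0.1) (0.0228), and lay between -0.14 and 0.12 without each library, positive without spheroid replicate 2 (0.04) or monolayer replicate 1 (0.12). That of Lamc3 lay between -0.0239, without spheroid replicate 3, and 0.31; the cause was not tested. No scaling moved the median of all genes by over 0.1 (range -0.02 to 0.03). The Schwann cell list gained 1 lower gene with no filter, and the epithelial list had 0 lower genes at a minimum count of 30, where fewer genes were tested. Shares by CPM in place of FPKM moved by more than the library SD for 14 of 37 subunits, and that of Itga8 changed sign (-0.11 by FPKM and 0.12 by CPM, in percentage points, spheroid minus monolayer; exact permutation p = 0.8 and 0.7). With no filter Itgad, Itgae, Lama3 and Lamb3 did not pass (edgeR adjusted p of 0.758 to 0.980). Depth limits the subunits under 1 FPKM, which rest on few reads.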
